A study of Homo sapiens with 37 samples.

Results

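The refilins and filamins are proteins of one small system that arranges actin. Of their genes, 4 were followed through all 37 libraries: the refilins RFLNA and RFLNB and the filamins FLNA and FLNC. They were taken by symbol from the 32055 genes of the UMI table. RFLNB was picked on its measured UMI levels, in which every KO library lay above every Control library, so its difference between the groups is given as a description without a test. The other members came with it by family. Of the 4 genes, 3 passed the filter on low counts, as did 10661 genes of the whole table, and RFLNA did not.

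Filamins are long dimeric proteins that hold crossing actin filaments together and anchor membrane receptors such as integrins and the platelet receptor GPIb to the cytoskeleton. FLNA is made in most tissues, whereas FLNC is known best from skeletal and heart muscle. Refilins are short proteins that bind filamins and change the way they arrange actin, from crossed networks towards bundles. Refilin B has been studied in the bundled actin that lies over the nucleus, and refilins also act downstream of TGF-beta in skeletal development.

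The libraries were made from K562, a human erythroleukemia cell line that can be driven towards red cells. The 26 KO libraries carry CRISPR/Cas9 disruption of the transcription factor gene ZBTB7A with a plasmid that also encodes GFP, and the 11 Control libraries received the same plasmid without a gRNA. Cells of both groups were sorted as single cells and expanded into clones, but the labels name each library only by a barcode of 6 bases and do not say which libraries share a clone or gRNA. The p-values below therefore measure the spread between libraries, which may in part be technical or clonal.

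RNA was read from its 3′ end by bulk SCRB-seq, and copies made by PCR were removed with unique molecular identifiers (UMIs). A level is given in CPM, the UMI count scaled to the effective library size after TMM normalization, or as log2 CPM with a prior count of 2. Totals ran from 563235 UMIs in Control library GTTTAT to 4710809, and the KO median was 2030965 against 3518944 in Control. ZBTB7A itself was at 42.5 to 84.0 CPM in KO and 37.8 to 72.5 CPM in Control libraries. The 3′ ends that were read need not hold the edited bases, so this level does not check the labels. The KO library GGCCAC lay near Control for several genes below, and the fold changes of RFLNB and FLNA are given with and without it. Erythroid genes such as HBG1, HBG2, KLF1 and GATA1 were detected, and all 13 genes matched from a list of 14 erythroid markers passed the count filter, with summed levels of 4260 to 9160 CPM in Control and 3060 to 9900 CPM in KO. Of these ALAS2 (1.41), EPOR (0.97) and TAL1 (0.39) rose and TFRC (-0.37), KLF1 (-0.22) and GATA1 (-0.19) fell on the log2 scale at an edgeR adjusted p below 0.05. Of the markers of other blood cells that could be tested besides GP1BA, ITGAM rose by 1.23 and CD33 and CD3D were lower, at -0.66 and -1.85. The part of these shifts in the results below was not tested.

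Upstream sequence was held for 2 of the members, FLNA and FLNC, which were both higher in KO, and it is shown to set their start regions side by side. Each is the RefSeq stretch of 250 bases before to 50 after the start (GRCh38.p14), written 5′ to 3′ on the gene's own strand. Capitals mark a CArG box, the 10-base element bound by serum response factor (SRF), a regulator of actin genes. The FLNA stretch is chrX:154374585-154374884 on the minus strand and the FLNC stretch chr7:128830156-128830455 on the plus strand.
FLNA: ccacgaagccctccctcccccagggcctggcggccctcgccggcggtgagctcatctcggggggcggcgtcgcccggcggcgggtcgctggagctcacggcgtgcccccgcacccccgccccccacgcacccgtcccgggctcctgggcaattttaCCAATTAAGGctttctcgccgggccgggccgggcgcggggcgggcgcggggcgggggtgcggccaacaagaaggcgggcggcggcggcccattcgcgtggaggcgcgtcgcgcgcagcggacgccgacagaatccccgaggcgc
FLNC: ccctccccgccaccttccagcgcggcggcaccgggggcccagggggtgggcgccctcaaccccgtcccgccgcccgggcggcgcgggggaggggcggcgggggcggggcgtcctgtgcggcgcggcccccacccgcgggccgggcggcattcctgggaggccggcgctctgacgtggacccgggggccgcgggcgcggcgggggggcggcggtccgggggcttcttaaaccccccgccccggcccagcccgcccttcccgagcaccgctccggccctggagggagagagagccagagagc
The FLNA match, searched for on both strands, reads CCAATTAAGG and begins 94 bases before the start (position -94). FLNC had no match in its window. A CArG box was present in 454 of 35116 promoters of this length, or 1.29%, and a match describes letters, not binding. The FLNA window was 78.3% G or C and the FLNC window 83.3%.

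RFLNB (ENSG00000183688, chromosome 17, 439978 to 445939, minus strand, GRCh38) has 2 exons in its canonical transcript and overlaps no other annotated gene. Control libraries held 3 to 49 of its UMIs, with a median of 32, and KO libraries 37 to 176. On the CPM scale the Control libraries were at 4.58 to 14.2 with a median of 9.74, and the KO libraries at 19.3 to 48.8 with a median of 38.2. The groups do not overlap: the highest Control library was TACTAT and the lowest KO library GGCCAC. Of all genes tested, 0.169% had every KO library above every Control library, and since RFLNB was picked for this pattern nothing is read from that share.
The mean level was 9.26 ± 2.71 CPM (SD, n = 11) in Control and 37 ± 6.83 CPM (SD, n = 26) in KO libraries. This is a log2 fold change of 1.96 (standard error 0.12), or 3.89-fold, by edgeR. Without GGCCAC the log2 fold change was 1.99, and in libraries with AT-rich barcodes (at most 2 G or C bases) it was 1.95. In a bulk library, a larger share of cells with a transcript and more of it per cell cannot be told apart.

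Within the KO group, GGCCAC at 19.3 CPM and TTATTG at 22.9 CPM were the lowest, and the other libraries ran from 28.9 to 48.8 CPM. The coefficient of variation was 18.5% in KO, where counting alone would give 11.6%, and 29.3% in Control, where it would give 22.3%. The spread was thus above that of counting in both groups. RFLNB was at 5.24 ± 0.34 log2 CPM (SD) in the 12 KO libraries with GC-rich barcodes (4 or more G or C bases) and at 5.18 ± 0.26 in the 12 with AT-rich barcodes, a difference of 0.05 that did not pass (two-sided permutation test, p = 0.671, or 0.682 adjusted over the 3 members tested). Only 1 Control library, CGGTGG, had a GC-rich barcode, so the groups could not be compared within that class.

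RFLNA (ENSG00000178882, chromosome 12, 123973241 to 124316024, plus strand), the second refilin, was barely detected. Control libraries held 0 to 3 UMIs, 6 of the 11 with none, and KO libraries 0 to 5 UMIs, 10 of the 26 with none. Summed over libraries this is 8 UMIs or 0.228 CPM in Control (exact Poisson 95% interval 0.0983 to 0.448) and 32 UMIs or 0.528 CPM in KO (0.361 to 0.746), intervals that cover counting error only. Nearly all refilin transcripts counted in these cells were thus RFLNB. Between single libraries a difference in RFLNA was not detectable at this depth. With every gene tested, its log2 fold change was 1.03 (standard error 0.54, edgeR adjusted p = 0.254), and a two-sided permutation test on log2 CPM, 1 of 3 such tests on members, gave an unadjusted p = 0.110. RFLNA shares its annotated span with ZNF664, and reads from that span could be split between the genes.

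FLNA (ENSG00000196924, chromosome X, 154348524 to 154374634, minus strand, 48 exons) was higher in KO. Control libraries were at 67.1 to 108 CPM with a median of 91.9, and KO libraries at 69.5 to 199 CPM with a median of 121. The groups overlap: 9 of the 26 KO libraries lay within the Control range, 17 above it and none below it. The mean rose from 88.2 ± 15 CPM (SD, n = 11) to 123 ± 34.3 CPM (SD, n = 26). The log2 fold change was 0.47 (standard error 0.13, edgeR adjusted p = 0.00507), or 1.39-fold, just under the study's fold threshold of 0.5 on the log2 scale. The permutation test on log2 CPM gave p = 0.00214. At an adjusted p below 0.05, 17.7% of all tested genes were higher in KO and 16.2% lower, and with the fold threshold as well 6.65% were higher and 3.53% lower. Without GGCCAC, the lowest KO library for FLNA, the log2 fold change was 0.50 (edgeR adjusted p = 0.00216).

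FLNC (ENSG00000128591, chromosome 7, 128830406 to 128859274, plus strand), the muscle filamin, had the highest median CPM of the 4 members in this blood cell line. It ran from 103 to 164 CPM in Control, with a median of 128, and from 119 to 185 CPM in KO, with a median of 147. Here the groups overlap more, with 8 of the 26 KO libraries above the Control range, whose top was the shallow library GTTTAT. Without GTTTAT 16 were above it. The mean was 128 ± 17 CPM (SD, n = 11) in Control and 152 ± 19.9 CPM (SD, n = 26) in KO. FLNC rose by a log2 fold change of 0.26 (standard error 0.07, edgeR adjusted p = 0.00253), or 1.20-fold, and the permutation test of log2 CPM gave p = 0.00115. In libraries with AT-rich barcodes FLNC was at 0.20 on the log2 scale and no longer passed (edgeR adjusted p = 0.0805).

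Because UMIs count 3′ ends, these levels do not grow with transcript length, and the members can be set in order by CPM. In Control the order was FLNC, FLNA, RFLNB and RFLNA, with medians of 128, 91.9, 9.74 and 0 CPM, and KO had the same order. The Control ranges of FLNC and FLNA touch, at 103 to 164 and 67.1 to 108 CPM. RFLNB held fewer UMIs than FLNA and FLNC in every library. Ratios within a library need no scaling between libraries. For each 100 FLNA UMIs, Control libraries held 5.19 to 20.5 RFLNB UMIs (median 10.2) and KO libraries 19.7 to 54.4 (median 29.0), and 24 of 26 KO libraries lay above every Control library. For each 100 FLNC UMIs the RFLNB counts were 3.30 to 11.5 in Control and 14 to 36.1 in KO, with no overlap. Since RFLNB was chosen for its rise, these ratios are given without a test.

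The filamins also differed in how much they varied between libraries. The coefficient of variation of FLNA was 27.8% in KO and 17% in Control, where counting alone would give 6.36% and 7.22%. FLNC varied by 13.1% in KO and 13.3% in Control, where counting alone would give 5.74% and 6.0%. The widest spread was thus that of FLNA among KO libraries, from 69.5 to 199 CPM. The KO library GGCCAC was the lowest for FLNA and RFLNB but lay at 139 CPM of FLNC, inside the range of the others. For each 100 FLNC UMIs, Control libraries held 52.6 to 85.8 FLNA UMIs (median 69.5) and KO libraries 50.2 to 121 (median 81.0). Of the 26 KO libraries, 11 were above the Control range, and GGCCAC, at 50.2, lay below it.

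**Figure D1:**
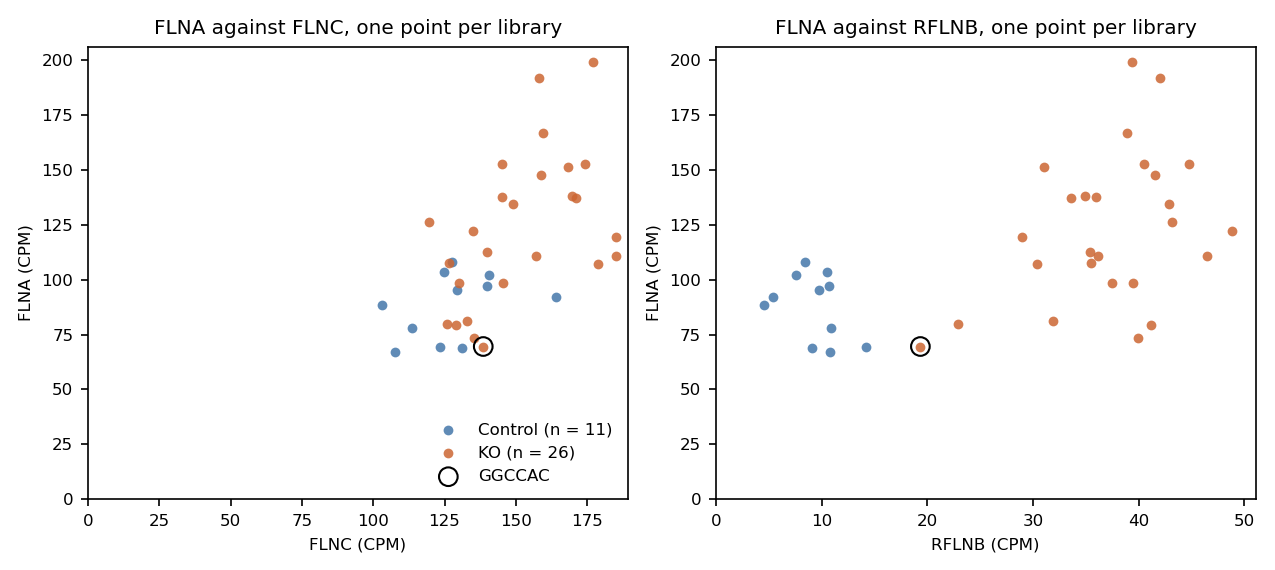
FLNA (CPM) against FLNC (left) and against RFLNB (right), 1 point per library, for 11 Control and 26 KO libraries, with GGCCAC ringed. The KO libraries spread from 69.5 to 199 CPM of FLNA but only from 119 to 185 CPM of FLNC, and in the right panel the groups are apart along RFLNB.

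Relations among RFLNB, FLNA and FLNC were measured within each group, as 6 relations in all. Within KO, FLNA and FLNC varied together with Pearson's r of 0.54 (permutation p = 0.00431, adjusted 0.0259, n = 26 libraries) and Spearman's rho of 0.51 (permutation p = 0.00868, adjusted 0.0521). Without the libraries CCCACG and GGCCAC, the 2 farthest from the median of FLNA, r was 0.49. RFLNB and FLNA gave r of 0.46 within KO (permutation p = 0.0179, adjusted 0.0537) and rho of 0.32 (permutation p = 0.106, adjusted 0.318). That relation rested on GGCCAC and TTATTG, since r was 0.15 without them. For RFLNB and FLNC, r was -0.03 (permutation p = 0.885, adjusted 0.885) and rho -0.18 (permutation p = 0.364, adjusted 0.364). Without GGCCAC and TTATTG this r was -0.40, a value that was not tested. Among the 11 Control libraries r ran from -0.35 to 0.40 and no relation passed (smallest adjusted permutation p = 0.433 for r and 0.358 for rho). With the 2 farthest libraries of each Control relation left out, r ran from -0.55 to 0.33, also without a test. Libraries that share a clone would not be independent points, and the labels do not tell.

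The genes most like RFLNB were sought among 8587 others whose mean reached 10 CPM. Over all 37 libraries the highest correlations were with AEBP1 (r = 0.93), TRIM71 (0.92), NOTCH3 (0.92), RTKN2 (0.92), and the receptor kinase MERTK (0.92), which all rose in KO. These points share the step between the groups. Over the 26 KO libraries alone the likeness was weaker and the genes were others: OCRL, a phosphoinositide phosphatase (r = 0.71), PLPPR2 (0.70), the tyrosine kinase JAK1 (0.66), a gene listed only as ENSG00000250501 (0.65), and the ETS factor ETV4 (0.64). All 5 were also higher in KO, with log2 fold changes of 0.74, 1.16, 0.67, 1.48 and 0.67. The largest edgeR adjusted p was 2.75e-05 (for OCRL). These correlations include GGCCAC and TTATTG, the lowest KO libraries for RFLNB, and how far they rest on them was not tested. For FLNA, looked at afterwards in the same way, the gene most alike over the KO libraries was MICAL2, an enzyme that oxidizes actin (r = 0.93). MICAL2 rose by a log2 fold change of 0.97 (standard error 0.18, edgeR adjusted p = 6.71e-05). GGCCAC, the lowest KO library for FLNA, was included here too.

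The genes around RFLNB did not share its rise. Of 10 other protein-coding genes within 500 kb, 6 were tested, all on the side away from the end of the chromosome arm, and their log2 fold changes lay between -0.26 and 0.26. VPS53, the nearest tested gene, rose by 0.26 (edgeR adjusted p = 0.00636), while GLOD4, GEMIN4 and MRM3 were lower by edgeR, with log2 fold changes of -0.26, -0.24 and -0.17 (adjusted p = 0.000594, 0.00287 and 0.0162). MRM3 stayed lower but no longer passed among AT-rich barcodes (-0.20, edgeR adjusted p = 0.0513) or without the Control library TTAATC (-0.14, edgeR adjusted p = 0.0591). TLCD3A at 0.02 and NXN at 0.04 did not pass. C17orf97, the nearest annotated gene, had 35 UMIs over all 37 libraries and could not be tested.
The region of FLNA, examined after its values were seen, differed. Of 22 tested neighbours within 500 kb on chromosome X, 8 rose and 3 fell in KO. Their median was 0.22 on the log2 scale, against -0.0046 over all tested genes. Across all tested genes, 33.8% passed the adjusted p, 17.7% higher and 16.2% lower in KO. Those that rose included ATP6AP1 (0.63), FAM50A (0.42), LAGE3 (0.42), SLC10A3 (0.40) and FAM3A (0.30), next to 0.47 for FLNA. The genes that fell changed more: CTAG2 by -2.98, GAB3 by -1.01 and MPP1 by -0.78 on the log2 scale (edgeR adjusted p = 1.18e-07, 7.2e-07 and 1.15e-05). Genes nearer to FLNA, such as EMD (0.20), RPL10 (0.08) and TAFAZZIN (-0.01), did not pass. Within KO, the median correlation of the 22 neighbours with FLNA was 0.42, with a range of -0.70 (MPP1) to 0.87, against a median of 0.00 over all tested genes. The points share library and depth, and copy number of the region was not measured. Around FLNC, 7 neighbours were tested, of which CALU rose by 0.39 (edgeR adjusted p = 9.06e-06) and RBM28 and ATP6V1F were lower.

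The rest of the actin system was read from 6 lists, whose 114 tested genes include 46 with an adjusted p below 0.05, 37 higher and 9 lower in KO. At both thresholds of the study (adjusted p below 0.05 and a log2 fold change beyond 0.5) 16 of the 114, or 14%, were called, against 10.2% of all 10661 tested genes, and at the p threshold alone the shares were 40.4% and 33.8%. None of the 46 changed sign with limma-voom, DESeq2, RLE factors, library size alone, the barcode class as covariate, AT-rich barcodes, or without GGCCAC or GTTTAT. No pattern particular to the lists is read from these shares.

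Of 23 tested genes for proteins that crosslink, bundle or coat actin filaments, 12 rose, 2 fell and 9 did not pass, and their median was 0.15 on the log2 scale. At the p threshold 60.9% passed, against 33.8% of all tested genes, and at both thresholds 17.4% were called, against 10.2%. CNN3, an actin-binding calponin, rose by 2.39 (standard error 0.42, edgeR adjusted p = 3.41e-05). Its KO libraries ran from 5.17 to 121 CPM against 6.08 to 14.5 CPM in Control, and 19 of 26 lay above every Control library, so the rise was uneven. LCP1, the bundling protein L-plastin of blood cells, rose by 0.77 (standard error 0.07, edgeR adjusted p = 1.73e-10), from 170 to 225 CPM in Control to 222 to 438 CPM in KO, and GGCCAC was the only KO library within the Control range. Drebrin (DBN1) and the plastin PLS1 rose by 0.70 and 0.56. Smaller rises were seen for the alpha-actinins ACTN1 (0.33) and ACTN4 (0.37), fascin (FSCN1, 0.35) and the non-muscle myosins MYH9 (0.32) and MYH10 (0.30). TPM3 and TAGLN2 fell by 0.16 and 0.12 on the log2 scale. TPM3, TPM4, CTTN and TAGLN2 no longer passed among AT-rich barcodes alone, where 10 of the 23 genes passed. The share of all tested genes that passed in that fit is not given here, so no pattern is read from the shares of this list. With barcode class as covariate CTTN and TAGLN2 also missed the threshold (edgeR adjusted p = 0.12 and 0.0738), as TAGLN2 did with library size alone (0.118).

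The actin genes did not pass the test. ACTB was at 11.12 ± 0.06 log2 CPM in Control and 11.07 ± 0.11 in KO (SD), with an edgeR adjusted p of 0.333, and ACTG1 differed by 0.04 on the log2 scale (edgeR adjusted p = 0.755). Of 34 tested genes for actin, its nucleators and turnover, 13 rose, 3 fell and 18 did not pass (47.1% passed, against 33.8% of all tested genes). Of these, the capping protein gene CAPZA1 fell by 0.10 on the log2 scale but missed the threshold with library size alone, barcode class as covariate and AT-rich barcodes (edgeR adjusted p = 0.153, 0.0819 and 0.629), and NCKAP1, which rose by 0.18, missed it among AT-rich barcodes (0.108). The thymosins, which hold actin monomers, were the lowest: TMSB4X fell by 1.47 on the log2 scale (standard error 0.17, edgeR adjusted p = 1.55e-08), from 187 to 478 CPM in Control to 46.3 to 215 CPM in KO, with AAAACT and GGCCAC as the only KO libraries within the Control range. TMSB10 fell by 0.65 (edgeR adjusted p = 0.0221). Thymosin genes have near-identical copies, so their counts are uncertain. Gelsolin (GSN), which severs filaments, rose by 1.31 and cofilin 2 (CFL2), which disassembles them, by 0.62, with 19 of 26 KO libraries above every Control library in each. Of the subunits that form the branching Arp2/3 complex, ARPC1A (0.38), ARPC4 (0.20), ARPC1B (0.18) and ARPC5L (0.11) rose, whereas ACTR2, ACTR3, ARPC2 and ARPC5 did not pass.

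Among 23 tested binding partners of filamin, 4 rose, 1 fell and 18 did not pass. At the p threshold 21.7% passed and at both thresholds 4.35% were called, against 33.8% and 10.2% of all tested genes. GP1BA, the platelet receptor chain that binds filamin A, rose by a log2 fold change of 3.35 (standard error 0.62, edgeR adjusted p = 6.63e-05). It was scarce, at 0 to 7 UMIs in Control and 1 to 88 UMIs in KO libraries, and GGCCAC was the only KO library within the Control range. GP1BA is also a megakaryocyte marker. Of 10 such markers 7 were matched and only GP1BA passed the count filter, the median library held no UMI of ITGB3, PF4, PPBP, VWF or SELP, and the summed level was 0.767 to 8.24 CPM in Control and 2.69 to 60.3 CPM in KO. Without GP1BA the sum of the other 6 was 0.256 to 6.07 CPM (median 2.36) in Control and 0 to 23.5 CPM (median 2.56) in KO, and the median of ITGA2B was 1.80 and 1.84 CPM. The part of that cell type in the result was not tested. INPPL1, RALA and ROCK2 rose by 0.31, 0.27 and 0.23, and TRIO fell by 0.38 on the log2 scale. The integrin beta chain ITGB1, talin (TLN1), vinculin (VCL) and zyxin (ZYX), which link filaments to adhesion sites, did not pass, with log2 fold changes of 0.17, -0.10, 0.16 and -0.14.

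Refilin B has been studied over the nucleus, and 11 genes from a list for the nuclear envelope were tested. Of these 2 rose, none fell and 9 did not pass, so 18.2% passed, against 33.8% of all tested genes. SUN1, which spans the inner nuclear membrane, rose by 0.16 (edgeR adjusted p = 0.000813). NES, an intermediate filament gene on the list but not a linker or lamin, rose by 1.17 (edgeR adjusted p = 0.00300). It no longer passed among AT-rich barcodes (edgeR adjusted p = 0.0601). LMNA was at a log2 fold change of -0.10 (edgeR adjusted p = 0.432).

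Genes of SRF, its cofactors and their targets moved both ways. Of 13 tested, SRF (0.20), CNN1 (0.41) and MYH9 (0.32) rose, the SRF cofactor MRTFB and the matrix protein gene CCN1 fell by 0.30 and 0.58 on the log2 scale, and 8 did not pass, among them MRTFA, VCL and FOS. The share that passed was 38.5%, against 33.8% of all tested genes, and 7.69% were called at both thresholds, against 10.2%. A CArG box stood in the promoter window of 4 of the 15 listed genes that have one in the table. Of the TGF-beta branch, 4 of 15 tested genes rose, 1 fell and 10 did not pass. That is 33.3% past the p threshold, against 33.8% of all tested genes. At both thresholds 26.7% were called, against 10.2% of all tested genes. No pattern is read from these shares. LTBP1 and LTBP3, which bind latent TGF-beta, rose by 1.03 (edgeR adjusted p = 3.6e-10) and 0.58 (edgeR adjusted p = 0.00923). SMAD3, a transducer of the signal, rose by 0.23, which no longer passed among AT-rich barcodes (edgeR adjusted p = 0.191). The repressor SKIL fell by 0.57 on the log2 scale, and all KO libraries but GGCCAC lay below every Control library. The receptors TGFBR1 and TGFBR2 did not pass (-0.24 and 0.16).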

How the data were processed

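The authors mapped reads to hg38 with STAR (2.6.0a in the submitters' processing notes), ran zUMIs on the Ensembl GRCh38.84 annotation (version not given in the sources used here) and deposited whole-number UMI counts for 32055 genes without normalization. All 37 columns were matched to labels by barcode. Symbols and positions come from GENCODE release 44, which named 31323 identifiers, and promoters from RefSeq.

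Counts were fitted in R 4.3.3 with edgeR 4.0.16 (default count filter, TMM, robust quasi-likelihood test, group as the only term, Benjamini-Hochberg adjustment over 10661 genes). Each standard error is the fitted log2 value over the root of its F statistic. Permutation tests were two-sided with 100000 resamples. Alternatives used limma 3.58.1 (voom) and DESeq2 1.42.0, other scalings and filters, barcode classes and leaving out each library. The code was tested on simulated counts.

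Members and lists were chosen with earlier results of these data known. Named genes are the members, ZBTB7A, coding genes within 500 kb of RFLNB, the 5 genes most like RFLNB in each library set, and from each list the 4 largest called changes plus members named for their role. Neighbours of FLNA and FLNC and MICAL2 were added after values were seen. Some genes that the rule names are not reported here.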

Additional observations from a re-analysis of the deposited data

How the results depend on the processing

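No paired analysis was possible because the labels give no replicate numbers. The number of genes called at both thresholds was 1085, 1720 with no filter on low counts and 672 with a mean of at least 10 CPM, where fewer genes were tested. It ran from 1044 to 1126 with each library left out in turn. FLNC no longer passed among AT-rich barcodes (0.20, edgeR adjusted p = 0.0805), where fewer libraries were compared. RFLNB with FLNA within KO passed with library size alone (r = 0.47, permutation, adjusted p = 0.0477). FLNA passed in every fit. NXN changed sign with limma-voom (-0.09), barcode class as covariate (-0.09), AT-rich barcodes (-0.36) and single libraries left out (-0.02 to 0.11), and TLCD3A with single libraries left out (-0.0069 to 0.06). The causes were not tested. TGF-beta genes that passed rose from 5 to 8 without TAATGA. Passing genes of the nuclear envelope list fell from 2 to 1 among AT-rich barcodes. Genes passing in any list ranged from 40 to 52. Depth limits RFLNA, which was under the count filter.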
